A study of Homo sapiens with 5 samples.

Results

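The genes described are the mRNAs of 8 proteins that read N6-methyladenosine (m6A), the commonest internal modification of mRNA: the 5 YTH-domain proteins YTHDF1, YTHDF2, YTHDF3, YTHDC1 and YTHDC2, and the 3 insulin-like growth factor 2 mRNA-binding proteins IGF2BP1, IGF2BP2 and IGF2BP3. They were chosen by gene symbol, with earlier results of these data known. Of these 8 genes, 7 had a row in every one of the 5 deposited expression tables, out of 12497 genes listed in at least 1 table and 10731 listed in all 5. IGF2BP1 had no row and was not analysed here.

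The 5 libraries come from MDA-MB-231, an established human triple-negative breast cancer cell line grown in L15 medium with serum. The library si-LY6E-DT is from cells treated to silence LY6E-DT, a long noncoding RNA, and si-LY6E-NC is taken from its label as their negative control. The library labelled si-HNRNPC is from cells in which HNRNPC was to be knocked down, and no control of its own is labelled. RIP-HNRNPC holds RNA recovered with an anti-HNRNPC antibody from lysed cells (RNA immunoprecipitation, RIP), and RIP-INPUT is labelled as its input. An IgG precipitate, which the protocol mentions, was not analysed here. In the treatment text the siRNAs against the 2 targets appear crossed, and groups were taken from each library's own label. Each group holds 1 library, so differences between libraries are without any replicate check, no spread or p-value can be given, and neighbours in an order of levels cannot be told apart by any spread. All levels are FPKM, the authors' fragment level scaled to gene length and library size, so levels of different genes can be compared. A change is log2((FPKM + 1)/(FPKM + 1)), and at least 2-fold on that scale is called higher or lower by a rule of size, among genes with a mean of at least 1 FPKM in both libraries.

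A methyltransferase complex built round METTL3 and METTL14 writes m6A on nascent mRNA, mostly near stop codons and in 3' UTRs, and the demethylases FTO and ALKBH5 can remove it. YTH-domain proteins hold the methylated adenosine in an aromatic cage: the YTHDF proteins do so in the cytoplasm, where YTHDF2 brings mRNAs to the CCR4-NOT deadenylase, and YTHDC1 does so in the nucleus. The IGF2BP proteins bind mRNA through KH domains and are known for stabilising transcripts such as that of MYC. HNRNPC binds runs of U in nuclear RNA and is called an indirect m6A reader, because methylation can loosen a hairpin and expose a U run to it.

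The U runs are the element that HNRNPC is known to bind, so the longest run in the 3' UTR of 6 readers is shown, in a window of 30 bases, 5′ to 3′, with the run in capitals. The sequences are from GENCODE 29 transcripts on GRCh38, and YTHDF3 is named only.
YTHDF1 (chr20:63196119-63196148, minus strand): cagacacUUUUUUUUUUUUUUUgaaaaucu
YTHDF2 (chr1:28769227-28769256, plus strand): auaaugcuaugUUUUUUUgucuuuuuacua
YTHDC1 (chr4:68314032-68314061, minus strand): aaaucuuguaUUUUUUUUUUguguguguuu
YTHDC2 (chr5:113594525-113594554, plus strand): ugggggauaaUUUUUUUUUUguaaauccgu
IGF2BP2 (chr3:185644984-185645013, minus strand): caauuauuaaUUUUUUUUUcuuuuuaaaga
IGF2BP3 (chr7:23310587-23310616, minus strand): gcauucaugaUUUUUUUUUcauacaaugaa
YTHDF1 held the longest run, of 15 U, and YTHDF2 the shortest of these, of 7 U. YTHDF2 was also the only one of the 7 measured readers with a GGACU, a common form of the m6A consensus, whole and within 30 bases of a run of 5 U. In that window, at chr1:28769020-28769049 on the plus strand, the motif runs straight into the U run, and both are in capitals.
YTHDF2, GGACU beside a U run: aagagaauuaGGACUUUUUUcuuaauuuca
Such a pair was present in the 3' UTR of 15.1% of 9962 genes. A match is a description of the letters and shows neither methylation nor binding.

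YTHDF1 and IGF2BP2 were the most abundant readers in all 5 libraries, and each made up most of its family's mRNA. YTHDF1 (ENSG00000149658.17_2), known for promoting translation of methylated mRNAs, had 29.3 FPKM in si-LY6E-DT, 44.7 in the library labelled si-HNRNPC, 25.8 in si-LY6E-NC, 87.4 in RIP-HNRNPC and 39.1 in RIP-INPUT. IGF2BP2 (ENSG00000073792.15_2), which is known for binding metabolic mRNAs, had 35.8 FPKM in si-LY6E-DT, 35.2 in the library labelled si-HNRNPC, 33.2 in si-LY6E-NC, 31.2 in RIP-HNRNPC and 45.6 in RIP-INPUT. YTHDF1 was high in the immunoprecipitate and IGF2BP2 lay within a narrow range everywhere. Their levels were above those of 87.1% to 97.8% of the genes listed in the same library for YTHDF1, and of 89.1% to 93.1% for IGF2BP2.

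YTHDC1 (ENSG00000083896.12_3), the nuclear reader that acts in splicing and export, ranked just below them in 3 of the 5 libraries, with 17.0 FPKM in si-LY6E-DT, 7.17 in the library labelled si-HNRNPC, 14.8 in si-LY6E-NC, 10.4 in RIP-HNRNPC and 13.4 in RIP-INPUT. It was lowest in the library labelled si-HNRNPC. YTHDC2 (ENSG00000047188.15_2), an RNA helicase with a YTH domain that is best known from meiosis in the mouse germline, had 5.42 FPKM in si-LY6E-DT, 3.77 in the library labelled si-HNRNPC, 5.02 in si-LY6E-NC, 7.14 in RIP-HNRNPC and 2.46 in RIP-INPUT. IGF2BP3 (ENSG00000136231.13_2), an oncofetal mRNA-binding protein, had 5.94 FPKM in si-LY6E-DT, 4.67 in the library labelled si-HNRNPC, 4.16 in si-LY6E-NC, 11.6 in RIP-HNRNPC and 3.05 in RIP-INPUT. Both of these were highest in the immunoprecipitate and lowest in its input.

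YTHDF2 (ENSG00000198492.15_3), the reader of mRNA decay, had 6.38 FPKM in si-LY6E-DT, 4.47 in the library labelled si-HNRNPC, 4.07 in si-LY6E-NC, 4.83 in RIP-HNRNPC and 4.79 in RIP-INPUT. It varied little. YTHDF3 (ENSG00000185728.16_3), which shares targets with YTHDF1 and YTHDF2, had 4.27 FPKM in si-LY6E-DT, 7.93 in the library labelled si-HNRNPC, 1.89 in si-LY6E-NC, 19.1 in RIP-HNRNPC and 5.89 in RIP-INPUT. Its highest level was 10.1 times its lowest, the widest span of the 7 readers, against 1.46 times for IGF2BP2, the narrowest. The median span over 10335 genes listed in all libraries with a mean of at least 1 FPKM was 5.09. Without RIP-HNRNPC the span of YTHDF3 was 4.20 and the median over those genes 2.21, while the other 6 readers spanned 1.37 to 2.37.

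**Figure D1:**
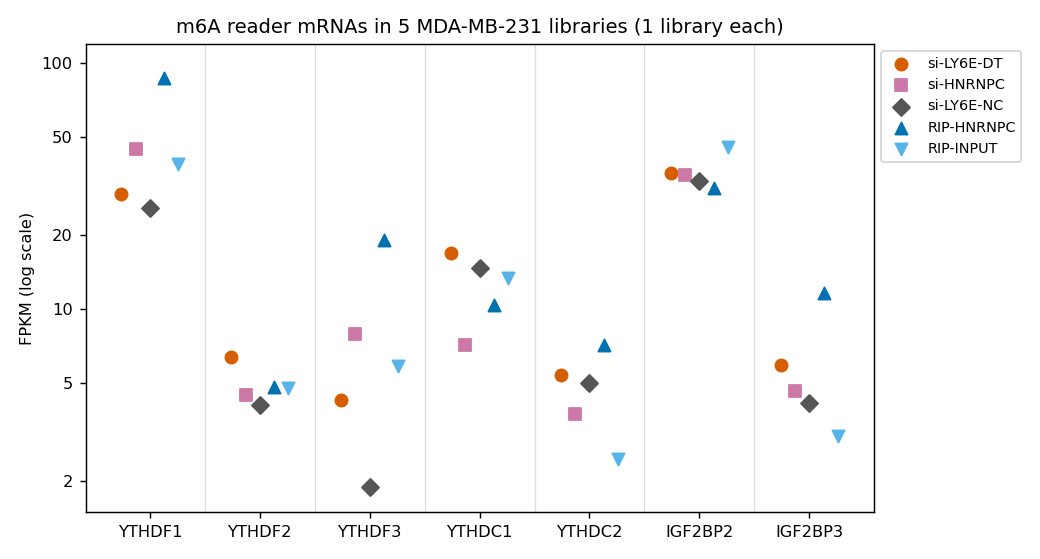
FPKM of each m6A reader mRNA (log axis) in the 5 libraries, 1 point per library. YTHDF1 and IGF2BP2 sit above the other readers in all 5 libraries, and YTHDF3 is highest in RIP-HNRNPC (19.1 FPKM) and lowest in si-LY6E-NC (1.89 FPKM).

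Among the 3 YTHDF mRNAs, YTHDF1 made up 73.3% of the summed FPKM in si-LY6E-DT, 78.3% in the library labelled si-HNRNPC, 81.2% in si-LY6E-NC and 78.5% in both RIP-HNRNPC and RIP-INPUT. The minor shares moved more. YTHDF3 made up 17.2% in RIP-HNRNPC and 11.8% in RIP-INPUT, while YTHDF2 made up 4.34% in RIP-HNRNPC and 9.63% in RIP-INPUT. In si-LY6E-NC YTHDF3 was the scarcest of the family, at 5.95%, and in the library labelled si-HNRNPC it passed YTHDF2, at 13.9% against 7.83%. IGF2BP2 exceeded IGF2BP3 6.03-fold in si-LY6E-DT, 7.54-fold in the library labelled si-HNRNPC, 7.96-fold in si-LY6E-NC, 2.69-fold in RIP-HNRNPC and 15.0-fold in RIP-INPUT. YTHDC1 exceeded YTHDC2 3.13-fold in si-LY6E-DT, 1.90-fold in the library labelled si-HNRNPC, 2.94-fold in si-LY6E-NC, 1.45-fold in RIP-HNRNPC and 5.42-fold in RIP-INPUT. Both ratios were lowest in the immunoprecipitate and highest in its input.

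**Figure D2:**
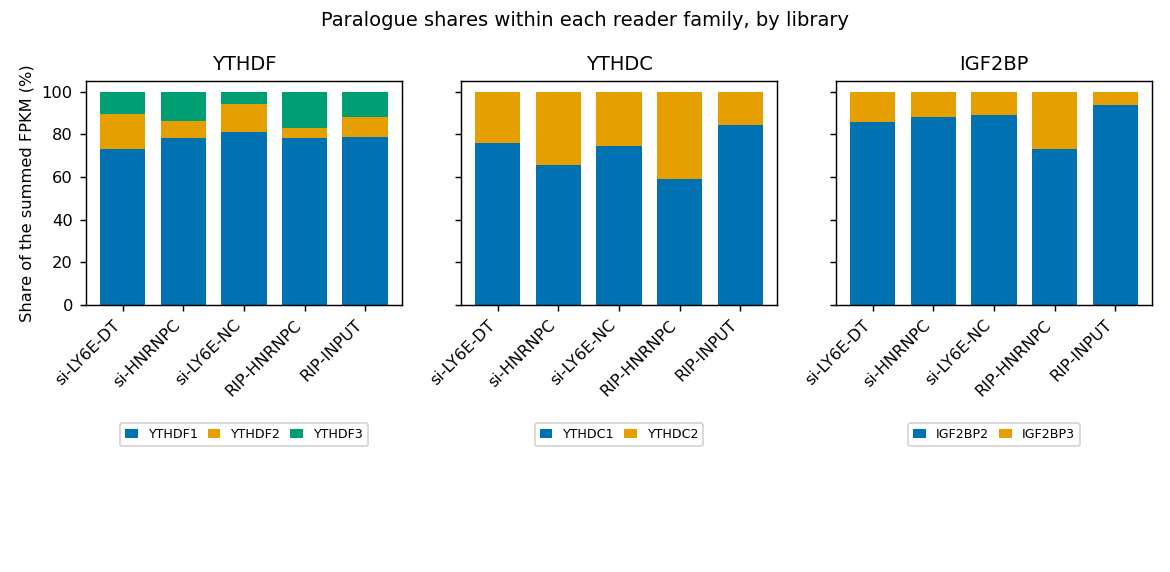
Share of each paralogue in the summed FPKM of its family (%), by library, for the YTHDF, YTHDC and IGF2BP families. The IGF2BP3 share is 27.1% in RIP-HNRNPC and 6.27% in RIP-INPUT, and the YTHDC2 share is 40.8% in RIP-HNRNPC and 15.6% in RIP-INPUT.

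The libraries were checked before the contrasts. HNRNPC mRNA measured 48.8 FPKM in the library labelled si-HNRNPC, beside 52.2 in si-LY6E-NC and 67.4 in RIP-INPUT, so its level goes against that label. The lowest HNRNPC level of the 5 libraries was that of si-LY6E-DT, 40.1 FPKM. LY6E-DT itself was not measured here, so the label si-LY6E-DT has no direct check. LY6E, the coding gene whose name it carries, had 12.8 FPKM in si-LY6E-DT, 4.24 in the library labelled si-HNRNPC and 20.9 in si-LY6E-NC. It was lower still in RIP-HNRNPC, at 0.638 FPKM, and in RIP-INPUT, at 1.69, for which no knockdown is labelled. Whether the labels si-LY6E-DT and si-HNRNPC are exchanged was not tested, and each contrast that uses either library is named by its label alone. All 6 MDA-MB-231 markers looked at, among them VIM and CD44, were at or above 1 FPKM in every library, with summed levels of 846 to 1035 FPKM. Single markers differed more than the sums. CAV1 had 8.12 FPKM in RIP-INPUT and 43.4 to 228 elsewhere, and S100A4 had 7.83 in RIP-HNRNPC and 55.1 to 130 elsewhere. The luminal markers ESR1, PGR and CDH1 had no row in any table, and the 5 or 6 listed of 9 luminal or epithelial markers summed to 8.25 to 105 FPKM. Outside RIP-HNRNPC, KRT18 had 36.6 to 47.2 FPKM and KRT8 12.0 to 44.6, while ERBB2, EPCAM and GATA3 had 1.74 to 8.61. Of 6 fibroblast markers, 3 were listed in si-LY6E-DT and si-LY6E-NC (summed 3.82 and 2.41 FPKM) and none elsewhere. Of 6 leukocyte markers PTPRC and CD3E had no row, and CD68, which encodes a lysosomal membrane protein, made up most of the list's sum, at 7.86 FPKM in si-LY6E-DT, 74.8 in the library labelled si-HNRNPC, 4.86 in si-LY6E-NC, 17.4 in RIP-HNRNPC and 63.3 in RIP-INPUT. The part of these marker levels in the results was not tested, and in bulk RNA fewer cells of a type and less RNA per cell cannot be told apart. Mitochondrially encoded mRNAs took 29.8% of the FPKM sum in RIP-INPUT and 7.20% to 9.92% in the other 4 libraries.

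The library si-LY6E-DT was set against si-LY6E-NC, the contrast its label implies for silencing of LY6E-DT. No reader reached 2-fold in si-LY6E-DT, 0 of 7, where 2.55% of 10473 genes did in either direction, 1.66% higher and 0.888% lower. All 7 readers had a positive log2 change, with a median of 0.19, while 55.6% of all genes were above 0 and their median was 0.04. YTHDF3 had the largest change of the 7, at 4.27 FPKM in si-LY6E-DT, beside 1.89 in si-LY6E-NC, a log2 change of 0.87 that 3.84% of genes matched or exceeded in size. The ratio of its FPKM was 2.26, and with a pseudocount of 0.1 in place of 1 its log2 change was 1.14, past 2-fold. YTHDF2 followed with a log2 change of 0.54, which 11.6% of genes matched, and IGF2BP3 with 0.43. YTHDC1 (0.19), YTHDF1 (0.18), IGF2BP2 (0.11) and YTHDC2 (0.09) had log2 changes that 53.6% to 76.0% of genes matched or exceeded.

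The lists of genes round the readers are set beside the same 2.55% of all genes, a share at which 0 called in a list of this size says little. None of 13 m6A writers and regulators, 13 other m6A-linked RNA-binding proteins, 19 decay partners of YTHDF2, 11 splicing and export partners of YTHDC1 or 9 granule partners of the IGF2BPs reached 2-fold. Their median log2 changes ran from −0.16 to 0.05. The eraser ALKBH5 had 26.0 FPKM in si-LY6E-DT, beside 24.5 in si-LY6E-NC, while FTO was below the level filter. Of 15 mRNAs known as IGF2BP targets, 1 was called, and it was the transcription factor MYC, at 3.22 FPKM in si-LY6E-DT, beside 34.9 in si-LY6E-NC (log2 change −3.09). MYC is also on the list of 11 measured YTHDF-bound mRNAs, of which no other was called. The log2 changes of IGF2BP2 and IGF2BP3 in the same libraries were 0.11 and 0.43.

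**Figure D3:**
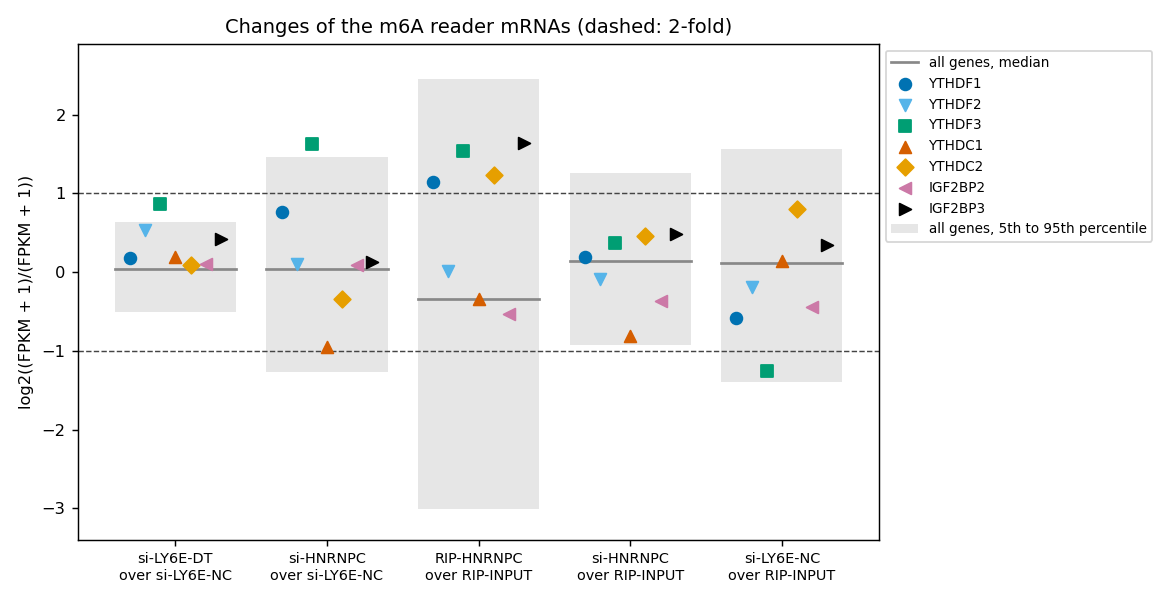
Log2 change of FPKM + 1 for the 7 readers in 5 contrasts (first-named library over the other), with the 5th to 95th percentile and the median of all genes in grey. YTHDF3 is past 2-fold in 3 contrasts, and the 4 readers past 2-fold in RIP-HNRNPC lie within the grey range of that contrast.

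The library labelled si-HNRNPC was set against si-LY6E-NC, although its HNRNPC level shows no knockdown of the size at which genes are called here. Of the 7 readers 1, YTHDF3, was at least 2-fold higher and 0 were lower, where 21.9% of 10247 genes passed in either direction, 12.4% higher and 9.44% lower. YTHDF3 had 7.93 FPKM in the library labelled si-HNRNPC and 1.89 in si-LY6E-NC, a log2 change of 1.63 that 5.66% of genes matched or exceeded in size. A pseudocount of 5 brought this log2 change to 0.91 and ended the call. YTHDC1 had 7.17 FPKM in the library labelled si-HNRNPC and 14.8 in si-LY6E-NC, a log2 change of −0.95 just short of 2-fold. It passed 2-fold, lower, with a pseudocount of 0.1 (−1.03), with quantile normalization (−1.08) and after rescaling that leaves out the 20 highest genes along with mitochondrial and ribosomal protein ones (−1.13). YTHDF1 had a log2 change of 0.77 and YTHDC2 one of −0.34. YTHDF2, IGF2BP2 and IGF2BP3, with log2 changes of 0.08 to 0.14, were among the least moved, since 86.6% to 91.4% of genes changed at least as much.

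Set against RIP-INPUT, the lysate of cells for which no knockdown is labelled, none of the 7 readers reached 2-fold in the library labelled si-HNRNPC, where 13.1% of 10185 genes did, 9.11% higher and 4.03% lower. YTHDF3 had 7.93 FPKM there and 5.89 in RIP-INPUT, a log2 change of 0.37 that 55.4% of genes matched. YTHDC1 had 7.17 FPKM there and 13.4 in RIP-INPUT, a log2 change of −0.81 that 21.1% of genes matched. YTHDC1 was thus lower in the library labelled si-HNRNPC against both si-LY6E-NC and RIP-INPUT, short of 2-fold in both on the scale used for calls. In plain FPKM its ratio was 0.485 against si-LY6E-NC, just past 2-fold, and 0.537 against RIP-INPUT. YTHDF3 was called against si-LY6E-NC alone, with an FPKM ratio of 4.20, beside 1.35 against RIP-INPUT. The contrasts are not independent, since si-LY6E-NC enters 3 of the 5 and RIP-INPUT also 3, with the contrast between them in both sets. Between si-LY6E-NC and RIP-INPUT, YTHDF3 had 1.89 FPKM in si-LY6E-NC and 5.89 in RIP-INPUT, a log2 change of −1.25 and the only reader called of 7, where 24.6% of 10264 genes were called in either direction, 14.2% higher and 10.4% lower. A pseudocount of 5 brought it to −0.66 and ended that call. YTHDC2 had a log2 change of 0.80 (5.02 FPKM in si-LY6E-NC, 2.46 in RIP-INPUT), and the other 5 readers ran from −0.58 to 0.35.

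The lists round the readers are set beside the 12.4% of all genes that were higher and 9.44% that were lower, and most of their counts are too small to stand apart from those shares. The splicing and export partners of YTHDC1 had a median log2 change of −0.62 in the library labelled si-HNRNPC over si-LY6E-NC, beside 0.04 for all genes. Of 11 tested 1 was at least 2-fold lower, the splicing factor SRSF10, at 6.65 FPKM against 14.6 in si-LY6E-NC. Against RIP-INPUT the same list had a median of 0.15 with 0 called, equal to the 0.15 of all genes. Of 13 writers and regulators 1 was higher, the cap-adjacent methyltransferase PCIF1 (23.3 FPKM against 10.9 in si-LY6E-NC), and 1 lower, the ubiquitin ligase CBLL1 of the writer complex (1.64 against 6.01). The eraser ALKBH5 was higher, at 62.9 FPKM against 24.5 in si-LY6E-NC, and it had 58.8 FPKM in RIP-INPUT. Of 19 decay partners of YTHDF2, 3 were higher and 0 lower, all of them subunits of RNase P and MRP, namely RPP25 (25.8 FPKM against 6.93), POP1 (18.0 against 6.13) and RPP38 (15.7 against 5.46). Of 13 other m6A-linked RNA-binding proteins 2 were lower, the translation initiation subunit EIF3A (50.3 FPKM against 148 in si-LY6E-NC) and LRPPRC (15.0 against 42.8). Of 9 granule partners of the IGF2BPs 1 was lower, the poly(A)-binding protein PABPC1 (101 FPKM against 279). Of 15 known IGF2BP targets 2 were higher and 2 lower, with the actin bundler FSCN1 (30.6 FPKM against 2.95), HMGA1 (592 against 254) and MKI67 (17.9 against 38.1) the largest. Of 11 YTHDF-bound mRNAs 1 was higher, the connexin GJA1 (13.6 FPKM against 1.72), and 5 were lower, led by the Wnt receptor FZD7 (6.32 against 15.9) and TNFRSF1B (0.627 against 2.65). Of the genes named in these lists, only POP1 was also called against RIP-INPUT (log2 change 1.44). RIP-INPUT had 22.2 FPKM for FSCN1, 588 for HMGA1, 15.9 for MKI67, 11.8 for GJA1, 62.2 for EIF3A and 13.7 for LRPPRC. These levels were nearer those of the library labelled si-HNRNPC than those of si-LY6E-NC, while RPP25 (13.5) and POP1 were nearer si-LY6E-NC. Whether the differences belong to the labelled knockdown or to si-LY6E-NC was not tested.

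The immunoprecipitate was set against its input to list the mRNAs higher or lower in it. Without an IgG precipitate, binding by HNRNPC cannot be told apart from other recovery of an RNA. Of the 7 readers 4 were at least 2-fold higher in RIP-HNRNPC and 0 lower, where 61% of 10284 genes passed in either direction, 24.2% of the tested genes higher and 36.9% lower. The median log2 change of the 7 readers was 1.14, beside −0.34 for all genes. IGF2BP3 had 11.6 FPKM in RIP-HNRNPC and 3.05 in RIP-INPUT, a log2 change of 1.64 that was above those of 86.6% of genes. YTHDF3 had 19.1 FPKM in RIP-HNRNPC and 5.89 in RIP-INPUT (log2 change 1.55, above 85.3% of genes). YTHDC2 had 7.14 FPKM in RIP-HNRNPC and 2.46 in RIP-INPUT (1.23, above 80.1%), and YTHDF1 had 87.4 FPKM in RIP-HNRNPC and 39.1 in RIP-INPUT (1.14, above 78.4%). The distribution over all genes was wide, with a 95th percentile of 2.46, and these 4 lay below that. With a pseudocount of 5 YTHDC2 had a log2 change of 0.70 and was not called.

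The other 3 readers were not enriched. YTHDF2 had 4.83 FPKM in RIP-HNRNPC and 4.79 in RIP-INPUT, a log2 change of 0.01, the smallest of the 7. YTHDC1 had 10.4 FPKM in RIP-HNRNPC and 13.4 in RIP-INPUT (−0.34), equal to the median of all genes. IGF2BP2 had 31.2 FPKM in RIP-HNRNPC and 45.6 in RIP-INPUT (−0.53). Mitochondrially encoded mRNAs took 29.8% of RIP-INPUT and 9.05% of RIP-HNRNPC. The rescaling that leaves them out moved the median of all genes by 0.22, and again 4 readers were called.

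U runs were dense in the longest annotated 3' UTR of all 7 readers, though not in the principal transcript of YTHDF3. In each gene's annotated transcript with the longest 3' UTR, runs of at least 5 U (UUUUU, on the transcript's own strand) numbered 13 in YTHDF1, 9 in YTHDF2, 18 in YTHDF3, 27 in YTHDC1, 15 in YTHDC2, 11 in IGF2BP2 and 18 in IGF2BP3. Per kilobase of 3' UTR that is 10.2 for YTHDF1, 10.9 for YTHDF2, 5.84 for YTHDF3, 7.27 for YTHDC1, 8.29 for YTHDC2, 6.14 for IGF2BP2 and 8.36 for IGF2BP3, against a median of 3.57 over 9962 genes. When genes were split by density into 4 groups of 2490 or 2491, all 7 readers fell in the densest group. At least 1 such run was present in 85.1% of the 3' UTRs. Among genes whose 3' UTR was within 20% of its length, 2.97% held as many runs as YTHDF2 and 3.46% as many as YTHDF1, while for YTHDF3 the share was 22.3% and for IGF2BP2 21.9%. The count depends on the transcript for 2 readers. In the APPRIS principal transcript the 3' UTR of YTHDF3 is 249 bases long and holds no run, in place of 3080 bases, and that of YTHDC1 is 778 bases long with 12.9 runs per kilobase, in place of 3712 bases.

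Across genes, the change in RIP-HNRNPC over RIP-INPUT went with these runs. The group with the sparsest runs had a median log2 change of −1.60 with 1.93% of genes at least 2-fold higher. The following groups had medians of −0.36, 0.54 and 0.65, with 16.3%, 37.5% and 42.1% of genes higher. Spearman's rho over 9962 genes was 0.49 with runs per kilobase, 0.63 with 3' UTR length and −0.55 with transcript GC content. These are descriptions, since genes are not independent and the 3 features go together. Within the readers the density of runs in the longest 3' UTR did not order the change, as YTHDF2 had the densest runs and a log2 change of 0.01, while YTHDF3 had the least dense and 1.55. In the principal transcripts YTHDC1 had the densest runs, at 12.9 per kilobase, and YTHDF3 had none. The window with GGACU beside a U run belongs to YTHDF2, which was not enriched.

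**Figure D4:**
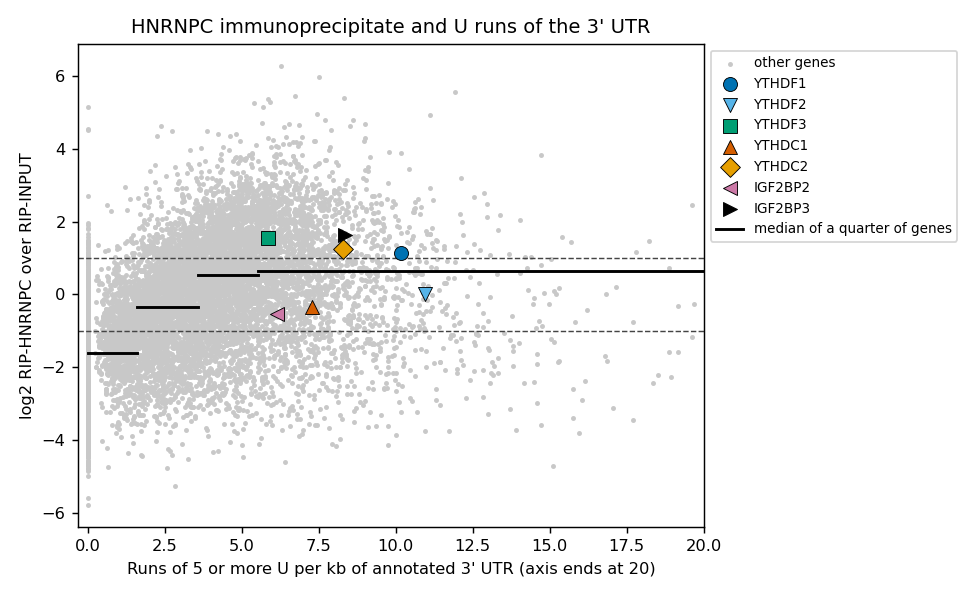
Log2 change of RIP-HNRNPC over RIP-INPUT against runs of 5 or more U per kilobase of the longest annotated 3' UTR, 1 point per gene, with the 7 readers marked and the median of each of 4 groups of genes as a line. All 7 readers lie in the densest group (median 0.65), with 4 above 2-fold and 3 between 0.01 and −0.53.

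The lists round the readers were split in the immunoprecipitate. They are set beside the 24.2% of all genes that were higher and the 36.9% that were lower. The median log2 change of all genes was −0.34. Most counts of these lists are too small to stand apart from those shares. Of 19 decay partners of YTHDF2, 9 were higher and 6 lower (median log2 change 0.81). The largest were CNOT8 (38.7 FPKM in RIP-HNRNPC, 3.58 in RIP-INPUT) and CNOT6 (84.2 in RIP-HNRNPC, 9.80 in RIP-INPUT), deadenylases of CCR4-NOT, and the 5′ exonuclease XRN1 (16.4 in RIP-HNRNPC, 1.14 in RIP-INPUT). The 6 lower ones held all 4 subunits of RNase P and MRP on the list, among them RPP38 (2.11 FPKM in RIP-HNRNPC, 18.9 in RIP-INPUT). Of 13 writers and regulators 3 were higher and 4 lower, the largest being TRMT112 (11.4 FPKM in RIP-HNRNPC, 77.7 in RIP-INPUT), its partner METTL5 (4.10 in RIP-HNRNPC, 29.8 in RIP-INPUT) and the writer-complex adaptor RBM15 (19.1 in RIP-HNRNPC, 3.19 in RIP-INPUT). The catalytic subunit METTL3 was lower (2.16 FPKM in RIP-HNRNPC, 5.86 in RIP-INPUT). The eraser FTO was higher (3.71 FPKM in RIP-HNRNPC, 0.348 in RIP-INPUT), and ALKBH5 had 65.0 FPKM in RIP-HNRNPC and 58.8 in RIP-INPUT.

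Of 13 other m6A-linked RNA-binding proteins 3 were higher and 6 lower (median −0.22), beside the same 24.2% and 36.9% of all genes. HNRNPA2B1, a nuclear protein also named as a reader, had 24.3 FPKM in RIP-HNRNPC and 177 in RIP-INPUT, and FXR2, a relative of FMR1, had 3.11 FPKM in RIP-HNRNPC and 24.996 in RIP-INPUT. The stress granule protein G3BP2 had 52.7 FPKM in RIP-HNRNPC and 9.49 in RIP-INPUT. Of 11 partners of YTHDC1 1 was higher and 3 lower, led by SAFB (3.81 FPKM in RIP-HNRNPC, 34.9 in RIP-INPUT), SAFB2 (2.63 in RIP-HNRNPC, 25.2 in RIP-INPUT) and the splicing regulator TRA2B (24.2 in RIP-HNRNPC, 8.22 in RIP-INPUT). Of 9 IGF2BP granule partners 1 was higher, FMR1 (4.88 FPKM in RIP-HNRNPC, 0.935 in RIP-INPUT), and 2 lower, YBX1 (106 in RIP-HNRNPC, 426 in RIP-INPUT) and DHX9 (14.8 in RIP-HNRNPC, 32.7 in RIP-INPUT). FMR1 is also on the list of other m6A-linked RNA-binding proteins and is counted as higher in both.

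The lists of mRNAs that the readers are known to bind are given beside the 24.2% of all genes that were higher and 36.9% that were lower. MYC is on both the IGF2BP and the YTHDF list, and HMGA2 on both the IGF2BP and the let-7 list, each counted as higher in both. Of 15 IGF2BP targets 6 were higher and 4 lower (median 0.41), among them MYC (34.3 FPKM in RIP-HNRNPC, 1.496 in RIP-INPUT) and the cyclin-dependent kinase CDK6 (46.3 in RIP-HNRNPC, 2.61 in RIP-INPUT). Of 10 YTHDF-bound mRNAs 5 were higher and 1 lower (median 0.98), among them GJA1 (71.7 FPKM in RIP-HNRNPC, 11.8 in RIP-INPUT) and the Hippo kinase LATS1 (11.6 in RIP-HNRNPC, 1.37 in RIP-INPUT). Of 8 oncofetal targets of the let-7 microRNA, a group to which IGF2BP2 and IGF2BP3 are also counted, 5 were higher and 0 lower (median 1.13), led by PRTG (4.63 FPKM in RIP-HNRNPC, 0.362 in RIP-INPUT), PLAGL2 (17.5 in RIP-HNRNPC, 5.50 in RIP-INPUT) and DIAPH2 (5.98 in RIP-HNRNPC, 2.06 in RIP-INPUT). MYC had 45.8 FPKM in the library labelled si-HNRNPC and 34.9 in si-LY6E-NC, so its level in RIP-HNRNPC was near that of these cell libraries and its level in RIP-INPUT was low.

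**Figure D5:**
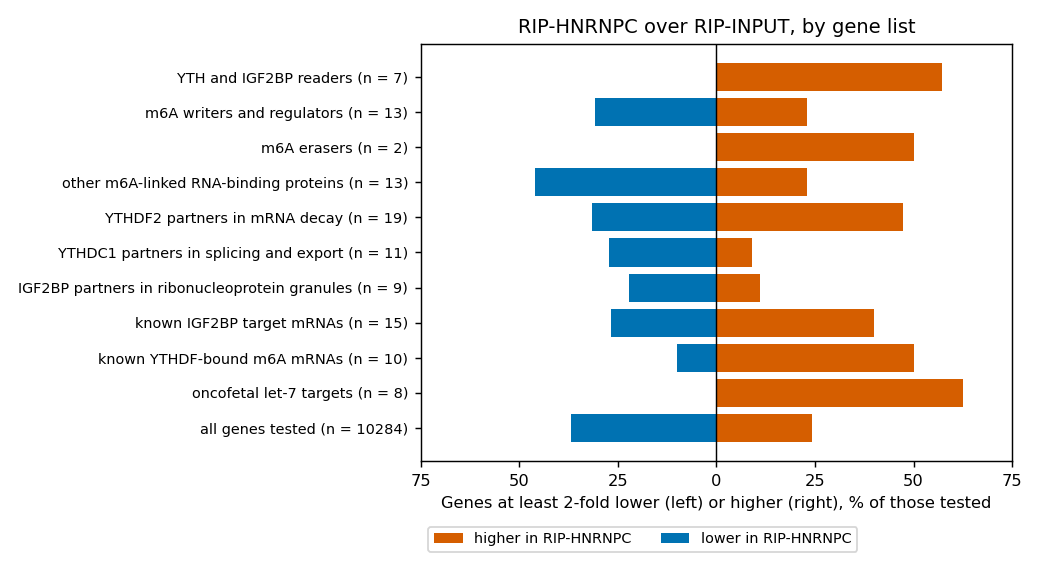
Share of tested genes at least 2-fold higher (right) or lower (left) in RIP-HNRNPC over RIP-INPUT, for the readers, 9 gene lists and all genes. The readers, the 2 erasers and the let-7 targets have no gene on the lower side, beside 36.9% of all genes. For a list of 2 genes such a count says little.

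The genes whose pattern over the 5 libraries was most like that of a reader were found by the Euclidean distance of log2(FPKM + 1), centred on each gene's mean, among 6567 genes with a mean of at least 5 FPKM. The closest pair was IGF2BP2 with GATAD1 (distance 0.036), at 6.08 FPKM in si-LY6E-DT, 5.87 in the library labelled si-HNRNPC, 5.60 in si-LY6E-NC, 5.12 in RIP-HNRNPC and 7.73 in RIP-INPUT. MEF2D came next to IGF2BP2 (0.11). YTHDF1 was closest to MCUR1 (0.17) and CDC42 (0.19), YTHDF2 to PPP2R5A (0.14) and STX12 (0.24), and YTHDC1 to YWHAH (0.16) and MUT (0.18). YTHDC2 was closest to PRKX (0.12) and PAPD7 (0.15), and IGF2BP3 to OTUD7B (0.16) and ARHGAP19 (0.17). YTHDF3 had the most distant neighbours, RIN2 (0.28) and SLC35E2B (0.43). Among the readers themselves YTHDF2 and IGF2BP2 (0.54) and YTHDC2 and IGF2BP3 (0.61) were the closest pairs, farther apart than any of these neighbours. With 5 libraries such a likeness is a description and says nothing of shared control.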

How the data were processed

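RNA levels were measured in 5 MDA-MB-231 libraries, 1 per group. Each library has 1 deposited table of FPKM, with genes in rows, per the file headers. Tools named in the submitters' processing notes, without roles or settings, are StringTie 1.3.3, HISAT2 2.1.0, cutadapt 1.17 and FastQC 0.11.7, with the build GRCh37. The tables give no counts, so the depth is unknown and no count test, interval or floor was used. FPKM depends on what abundant genes take of a library, and shares between gene models are estimates.

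Genes were joined by identifier. None of the 7 measured readers shares exons with another coding gene on its strand in GENCODE 29. That release is on GRCh38, so printed positions are GRCh38 and none was converted. Symbols listed under 2 identifiers (such as MATR3) were left out of the lists. Changes used a pseudocount of 1, a mean of at least 1 FPKM and a 2-fold rule of size. Named genes are the readers, the targeted genes, the 3 largest called genes per list and contrast (all, where 3 or fewer), and the 2 most alike genes per reader, except that some genes are not reported here; METTL3, ALKBH5, RPP38 in RIP-HNRNPC and MYC in further libraries were chosen after their values were seen, as was the use of the longest 3' UTR. The readers and lists were chosen with earlier results of these data known. Scripts in Python 3.11.15 (scipy 1.17.1, pandas 2.3.3, numpy 2.4.6, matplotlib 3.10.9) were tested on simulated data. Every contrast was recomputed with a 1.5-fold rule, a pseudocount of 0.1 or 5, either no level filter or one of 5 FPKM, quantile normalization, median centring, and a rescaling that leaves out the 20 highest genes along with mitochondrial and ribosomal protein ones.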

Additional observations from a re-analysis of the deposited data

How the results depend on the processing

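No paired analysis was possible because each group holds 1 library and the labels give no replicate numbers; leaving out a replicate was likewise impossible, and with FPKM alone the depth and its limits are unknown. In RIP-HNRNPC over RIP-INPUT the readers called numbered 3 or 4 under all 8 alternatives, none of them lower. In si-LY6E-DT over si-LY6E-NC, with 0 called, 1 was called (YTHDF3, higher) with a pseudocount of 0.1 and 1 at 1.5-fold. In the library labelled si-HNRNPC over si-LY6E-NC, with 1 called, there were 2 with a pseudocount of 0.1, 2 with quantile normalization and 2 with rescaling, since YTHDC1 joined as lower; there were 3 at 1.5-fold, 0 with a pseudocount of 5 and 0 with a filter of 5 FPKM, which leaves YTHDF3 out. In that library over RIP-INPUT, 0 became 1 at 1.5-fold. In si-LY6E-NC over RIP-INPUT, 1 became 0 with a pseudocount of 5 and 0 with a filter of 5 FPKM, and 2 at 1.5-fold. Of 175 log2 changes of single readers recomputed with another pseudocount, centring or scaling, 172 moved by less than 0.585 and no called change turned its sign. The 3 others came with a pseudocount of 5. They were YTHDF3 in the library labelled si-HNRNPC over si-LY6E-NC (0.91), IGF2BP3 in RIP-HNRNPC over RIP-INPUT (1.05) and YTHDF3 in si-LY6E-NC over RIP-INPUT (−0.66). With the APPRIS principal transcript, chosen after the data were seen, rho with U runs per kilobase was 0.46.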
